A study of Mus musculus with 14 samples.

Results

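The comparison described here is that of whole heads of Zcchc8-/- mouse embryos (KO, 6 libraries) with heads of Zcchc8+/+ embryos (WT, 5 libraries) over protein-coding loci. All embryos were C57BL/6J at stage E12.5, and 3 Zcchc8+/- libraries (HET) are given beside them without a test. RNA came from bead-homogenised heads kept in RNAlater, and libraries were made with a stranded kit for polyadenylated messages. A locus is the unit of the deposited tables. Its value is the FPKM, the number of fragments scaled by transcript length and by the library's fragments. Members were loci with 1 gene name, classed as protein-coding in the deposited annotation, that reached 0.5 FPKM in 3 or more of the 14 libraries. Of 67811 loci 18217 passed that filter on levels, and 11707 of these were coding loci, with 11216 distinct gene names. Another 7104 single-name coding loci were too low to be tested. Which part of Zcchc8 is altered, and whether each library is its own embryo, is not stated in any source used here. By Y-linked RNA the WT and KO libraries each included males and females, so each group held more than 1 embryo. Some libraries may still share an embryo, and the p-values may therefore in part measure technical spread.

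ZCCHC8 scaffolds the complex that targets nuclear RNA to the exosome (NEXT). It joins the helicase MTR4 to the RNA-binding protein RBM7, and the complex hands newly made nuclear transcripts to the RNA exosome for degradation. Known substrates are short, unspliced or prematurely ended RNAs, among them transcripts that start upstream of promoters on the other strand and 3'-extended transcripts of histone and small nuclear RNA genes. Messages of coding genes are mostly spliced, polyadenylated and exported, and so usually escape this route.

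Zcchc8 RNA itself (chromosome 5, 123698294 to 123721100, minus strand, GRCm38, 14 exons) was at 40.8, 38.1, 40.8, 36.6 and 42.3 FPKM in the WT libraries. The HET libraries held 26.0, 23.98 and 27.2 FPKM. In KO it ranged from 9.27 FPKM in KO1 over a median of 15.1 to 20.6 in KO5, below all WT and HET libraries. The log2 difference was -1.39 (SE 0.15, limma-trend adjusted p = 2.1e-06). A two-sided exact permutation test on the FPKM values had a p of 0.00433, the lowest possible with 6 and 5 libraries. Among 22 tested genes of the nuclear exosome and its adaptors, Zcchc8 was the only one called in this fit. Of 28 same-strand coding loci within 1 Mb of Zcchc8, Anapc5, a subunit of the anaphase-promoting complex, was the only one called, at 185 FPKM in KO and 209 in WT (log2 -0.17, SE 0.04, limma-trend adjusted p = 0.0045).

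The libraries differed in one respect that touches all results below. KO libraries held 28310 to 32667 loci with an FPKM above 0, and WT libraries 26902 to 27622. Total depth is unknown, since no read counts were used here. A whole head holds many tissues, so a fall of a message may mean fewer cells of a type or less RNA per cell, and these cannot be told apart. Markers of the head's main cell types were present, with medians of 23.7 FPKM over 22 genes of neural progenitors and 43.6 FPKM over 27 genes of neurons in WT.

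Coding loci moved both ways. A locus was called when its limma-trend p, adjusted over all 18217 loci, was under 0.05. By this rule 818 coding loci (6.99%) were higher and 868 (7.41%) lower in KO. The sizes differed, since 427 of the higher (3.65% of the members) and 33 of the lower loci (0.282%) changed at least 2-fold. The number of lower loci depended on single libraries and was 569 without KO4 and 564 without WT4. That of loci at least 2-fold lower was 16 without WT4 and 60 without KO5.

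Many of the higher loci were not on the strand of their gene. Among the members, 479 gene names belonged to more than 1 tested locus, which made up 970 loci. The order of rows within each chromosome falls into at most 3 runs of rising positions, and of 14785 coding loci whose gene has a single locus, 98.3% lay in the run of their gene's annotated strand. Over all 18605 matched coding loci, second loci of a gene included, the share was 88.4%. Strand is not stated in the files and was read from these runs, a split chosen after the data had been seen. It put 11091 members on the strand of their gene (same-strand loci), 557 on the other strand (opposite-strand loci) and 31 in the third run, for which no strand could be read. The other 28 could not be matched to an annotated gene. By this reading an opposite-strand locus carries the name of a coding gene but lies on the other strand from its message. Whether third-run loci belong to the message was not tested.

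Of the 557 opposite-strand loci 327 (58.7%) were higher in KO and 2 (0.359%) lower, with a median log2 difference of 1.12. Of the 11091 same-strand loci 460 (4.15%) were higher and 866 (7.81%) lower, with a median of -0.04. Loci of the third run were higher in 26 of 31 cases (83.9%). Among the 460 higher same-strand loci the median rise was 0.53 log2, and 114 (1.03%) rose at least 2-fold, against 283 of the opposite-strand loci (50.8%). The lower same-strand loci fell by a median of 0.30 log2, and 32 (0.289%) fell at least 2-fold. Without KO4 and without WT4, the number of lower same-strand loci was 566 and 562.

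**Figure D1:**
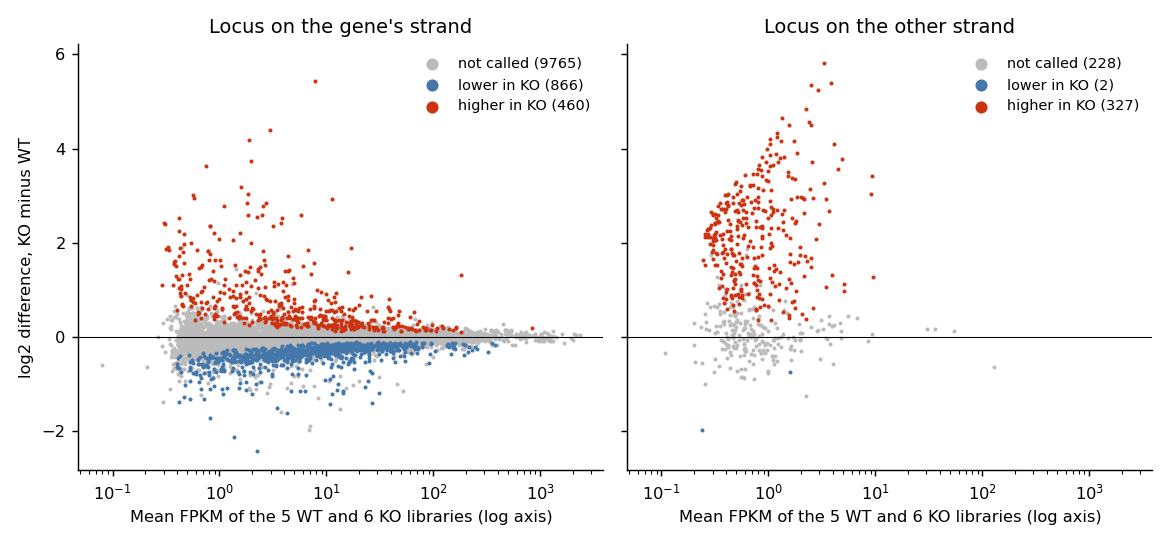
The log2 difference of KO minus WT against the mean FPKM of both groups on a log axis, 1 point per coding locus, for loci on the strand of their gene (left) and on the other strand (right). The 327 higher opposite-strand loci reach 5.81 log2 at low levels. The 866 lower same-strand loci have a median of -0.30 log2, and 32 of them fell at least 2-fold.

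The filter itself let part of the higher loci in. Of the opposite-strand loci 226 passed on the WT and HET libraries alone, and 69 of these (30.5%) were higher and 2 lower. Of the same-strand loci 10905 passed that way, and 384 of them (3.52%) were higher and 866 lower. Only 7 of the 31 third-run loci did so, and 3 of those (42.9%) were higher and 0 lower. The median opposite-strand locus was at 0.343 FPKM in WT and 0.870 FPKM in KO, far under the median same-strand locus at 12.0 FPKM in WT. Per library, the median log2 deviation of opposite-strand loci from their WT mean was 0.84, 1.10, 1.19, 1.16, 1.43 and 1.38 in KO1 to KO6. It was -0.15 to 0.09 in WT libraries and -0.15 to 0.00 in HET libraries, so these medians did not overlap. Over the 226 loci that passed without KO libraries, the medians were 0.07, 0.24, 0.24, 0.23, 0.45 and 0.44 in KO1 to KO6 and -0.17 to 0.14 in WT, so that KO1 lay within the WT range.

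Examples show how far the 2 strands of a gene differed. The opposite-strand loci of Gtf2i, Wdr1 and Mdm2 were under 0.5 FPKM in all WT and HET libraries. They were thus tested only through their KO levels, so their separation and p-values rest on values that the filter used. Gtf2i encodes a general transcription factor (chromosome 5, 134237834 to 134314760, minus strand). Its opposite-strand locus was at 0.0873, 0.0210, 0.0504, 0.0214 and 0.0384 FPKM in WT, at 0.0665, 0.0275 and 0.0605 in HET, and between 4.54 and 5.95 FPKM in KO with a median of 5.33. All KO libraries were far above all others, and the log2 rise was 5.24 (SE 0.14, limma-trend adjusted p = 2.8e-12). The same-strand locus, the message, was at 138 ± 2.24 FPKM in WT (SD, n = 5) and 138 ± 6.06 FPKM in KO (SD, n = 6).

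Wdr1 encodes a cofactor of cofilin in actin disassembly. Its opposite-strand locus was at 0.0345, 0.0297, 0.119, 0.0757 and 0.0757 FPKM in WT and at 4.65 to 8.41 FPKM in KO with a median of 7.01 (log2 5.40, SE 0.19). Here the message fell a little. It was at 66.3 ± 2.96 FPKM in WT (SD, n = 5) and 58.9 ± 3.67 FPKM in KO (SD, n = 6), a log2 change of -0.17 with an SE of 0.05 (limma-trend adjusted p = 0.014). For Mdm2, the ubiquitin ligase of p53, the opposite-strand locus rose from 0.0246 to 1.48 FPKM (log2 3.65) beside a message at 26.3 and 25.7 FPKM that was not called. Psma6, a subunit of the 20S proteasome, had a third-run locus that rose from 0.465 to 13.3 FPKM (log2 4.61) and a message at 174 and 170 FPKM that was not called.

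**Figure D2:**
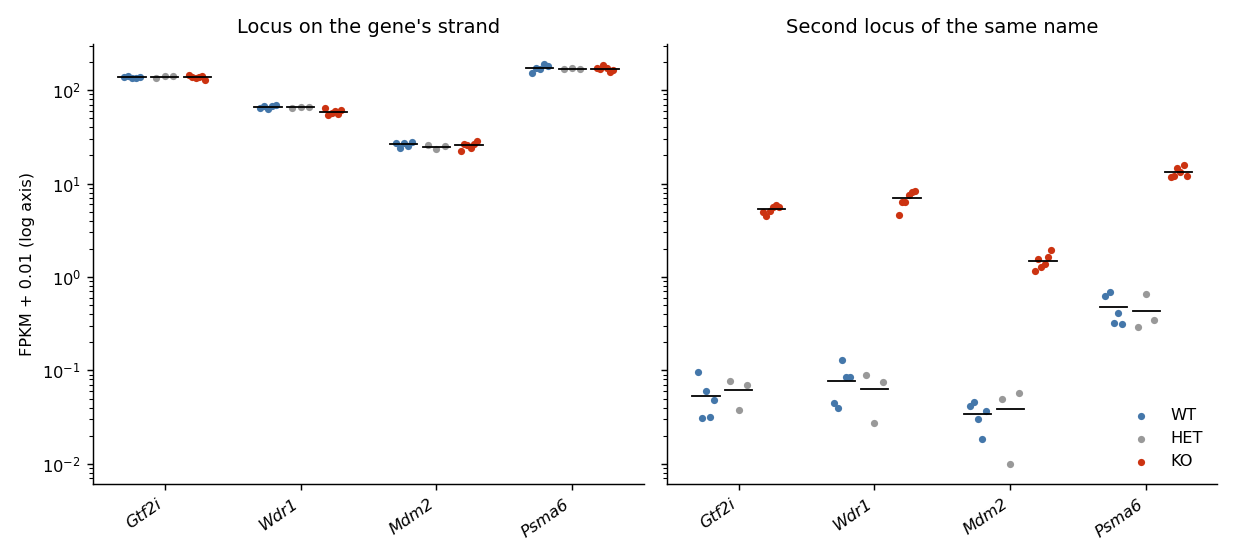
FPKM plus 0.01 on a log axis in each library for the message of Gtf2i, Wdr1, Mdm2 and Psma6 (left) and for a second locus of the same name (right), with group means as black lines. The second loci of KO libraries sit far above those of WT and HET libraries, while the message levels of the 3 genotypes lie close together.

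Other opposite-strand loci among the largest rises were those of Tmem39b, a multipass membrane protein (log2 5.81, 4.84 to 7.03 FPKM in KO and listed at 0 in all WT and HET libraries but WT4), of the terminal uridyltransferase gene Zcchc11 (log2 4.85), of Id3, an inhibitor of basic helix-loop-helix factors (log2 4.56), and of the zinc finger gene Zkscan8 (log2 4.50). The opposite-strand locus of Slc22a15, a solute carrier, was listed at 0 in all WT and HET libraries and was at 1.86 to 3.26 FPKM in KO. The opposite-strand loci of Tmem39b, Zcchc11, Id3, Zkscan8 and Slc22a15 were all under 0.5 FPKM in every WT and HET library. These too were tested only through their KO levels. Of the 327 genes with a higher opposite-strand locus, 267 also had a same-strand locus among the members. Of these messages 18 were higher, 16 lower and 233 not called, with a median log2 difference of -0.02 and a median WT level of 15.8 FPKM. Of 178 messages beside an opposite-strand locus that was not called, 6 were higher and 12 lower. By gene, 457 of all 11080 messages were higher and 866 lower, and by same-strand locus 4.15% and 7.81%.

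One of the 18 was Igf2bp3, an RNA-binding protein of embryonic tissues. Its message was at 37.3, 37.1, 37.3, 36.9 and 42.7 FPKM in WT and at 40.6 to 48.9 FPKM in KO with a median of 44.7, so that WT5 lay within the KO range (log2 0.22, SE 0.06, limma-trend adjusted p = 0.011). Its opposite-strand locus rose from 0.478 to 4.36 FPKM (log2 2.94), and there the groups did not overlap. All results below are about same-strand loci, against whose shares of 4.15% higher and 7.81% lower each list is read.

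Replication-dependent histone genes had the most risen messages among the 47 gene lists examined. Their transcripts normally end at a stem-loop in the 3' UTR and carry no poly(A) tail, so libraries of polyadenylated RNA hold the tailed fraction alone. Of 37 tested, 27 were higher and 1 lower, with a median log2 difference of 1.26 against -0.04 over all same-strand loci. In 22 of the 37, all KO libraries lay above all WT libraries, as they did in 2.56% of all same-strand loci. Over the 31 that passed the filter on WT and HET libraries alone, 21 were higher and 1 lower, with a median of 1.18 log2. The count of 22 was taken over all 37. It thus includes loci tested only through their KO levels, such as Hist1h2bp, whose separation rests on values that the filter used. Many of these genes are near-identical copies, whose fragments may have been shared between them, so single members are uncertain.

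Hist3h2ba was the highest member named here (chromosome 11, 58948920 to 58949533, plus strand, 1 exon). It was at 103, 94.2, 117, 110 and 77.5 FPKM in WT, at 104, 123 and 103 in HET, and between 190 and 296 FPKM in KO with a median of 260 (log2 1.32, SE 0.11, limma-trend adjusted p = 1.8e-07). Hist1h2bp, an H2B gene with 2 annotated exons, rose most, from 0.206, 0.338, 0.243, 0.131 and 0.251 FPKM in WT to between 9.498 and 17.7 FPKM in KO with a median of 14.4 (log2 5.43, SE 0.17). In both, KO libraries stood clear of the others, but Hist1h2bp was under 0.5 FPKM in all WT and HET libraries and so was tested only through its KO levels.

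Hist2h2be was the most even among the KO libraries, at 24.8 to 27.1 FPKM against 6.41 to 7.58 FPKM in WT (log2 1.89). The H4 genes Hist1h4j and Hist1h4b rose from 0.677 to 3.01 and from 3.51 to 11.2 FPKM, the H3 gene Hist1h3c from 8.11 to 22.2 FPKM and the linker histone gene Hist1h1b from 1.12 to 3.42 FPKM. The 1 lower member was Hist1h2bc, at 6.64 ± 0.449 FPKM in WT (SD, n = 5) and 4.63 ± 0.497 FPKM in KO (SD, n = 6), a log2 change of -0.51 (SE 0.08, limma-trend adjusted p = 1.2e-04).

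The stem-loop marks where the normal message ends. The sites of 5 risen genes are shown, 5′ to 3′ on the gene's strand, from the GENCODE M21 transcripts (GRCm38), with the stem and loop in capitals.
Hist3h2ba, chr11:58949344-58949369: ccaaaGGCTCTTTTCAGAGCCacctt
Hist1h4j, chr13:21735432-21735457: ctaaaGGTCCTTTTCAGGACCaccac
Hist1h4b, chr13:23757361-23757386: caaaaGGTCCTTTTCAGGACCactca
Hist1h3c, chr13:23745042-23745067: aaaaaGGCTCTTTTAAGAGCCaccta
Hist1h2bp, chr13:21787918-21787943: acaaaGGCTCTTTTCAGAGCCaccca
A stem-loop of this kind was found in the annotated transcripts of 23 of the 37 histone genes (62.2%) and of 10 of 11043 other genes (0.0906%). Of the 23, 17 were higher and 0 lower, and of the 14 without a match 10 were higher and 1 (Hist1h2bc) lower. A missing match says only that these letters are not in the annotated transcript. For Hist3h2ba and Hist1h4j the annotated transcript runs 169 and 385 bases past the stem-loop, for Hist1h4b and Hist1h3c 28 and 74 bases. Hist1h2bp has a 1-exon transcript that ends 38 bases past the stem-loop and a 2-exon transcript that lacks these letters and ends 1275 bases downstream of them in the genome. Which of the pair the FPKM of Hist1h2bp reflects was not tested. The 9 tested genes that process histone messages, with a median log2 difference of 0.01, had 1 higher and 0 lower.

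Genes of the interferon response and RNA sensing had the second highest share of risen members among the lists. The interferon system answers foreign or misplaced RNA. Of 16 tested, 7 were higher and 0 lower, with a median log2 difference of 0.26, which turned to -0.08 after quantile normalization, where 2 were higher and 3 lower. Per library, the list's median deviation from the WT mean was 0.05, 0.22, 0.47, 0.34, 0.41 and 0.81 in KO1 to KO6, against -0.15 to 0.13 in WT. KO1 thus lay within the WT range and KO6 highest.

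Isg15, a ubiquitin-like modifier, was at 1.66, 1.22, 0.636, 1.27 and 1.39 FPKM in WT, at 0.640, 1.48 and 1.52 in HET, and between 2.04 and 6.31 FPKM in KO with a median of 2.88 (log2 1.34, SE 0.31, limma-trend adjusted p = 0.0038). Its protease Usp18 was at 0.629, 0.377, 0.446, 0.396 and 0.545 FPKM in WT and between 1.01 and 1.81 FPKM in KO with a median of 1.12 (log2 1.20, SE 0.23, limma-trend adjusted p = 8.2e-04). Neither gene overlapped between the groups.

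The transcription factor gene Irf7 rose from 0.624 to 1.32 FPKM, the oligoadenylate synthetase-like gene Oasl2 from 1.28 to 2.42 FPKM, and Bst2, whose protein tethers virions, from 8.13 to 15.0 FPKM. Xaf1, a proapoptotic interferon target, was at 2.06 FPKM in KO and 1.19 in WT, with a limma-trend adjusted p of 0.024 that was 0.055 without KO6 and 0.0562 without WT3. Ddx58, the sensor RIG-I, was at 3.07 and 2.23 FPKM, with a limma-trend adjusted p of 0.025 that was 0.055 without KO6 and 0.0773 without WT4. With no filter on low values the adjusted p was 0.0606 for Xaf1 and 0.0571 for Ddx58. Of 19 myeloid and mast cell markers 1 was higher and 1 lower, with summed levels of 105 to 113 FPKM in WT and 91.2 to 116 FPKM in KO and no marker at 0 in all libraries. Aif1, Cd68 and Lyve1 had no locus with a single gene name and are missing from these values. The part of myeloid and mast cells in the interferon result was not tested.

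Promoters are shown for the 3 called interferon genes that hold the letters GAAA, any 2 bases and again GAAA, the core of the interferon-stimulated response element, within 250 bases before to 50 after the RefSeq start (GRCm38.p6). Matches on either strand, also where they overlap, are in capitals, and the sequence reads 5′ to 3′ on the gene's minus strand.
Isg15, chr4:156200845-156200926: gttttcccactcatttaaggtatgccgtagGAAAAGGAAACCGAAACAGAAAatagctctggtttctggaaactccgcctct
Bst2, chr8:71537557-71537632: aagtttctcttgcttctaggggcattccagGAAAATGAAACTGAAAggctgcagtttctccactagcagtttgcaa
Ddx58, chr4:40239784-40239853: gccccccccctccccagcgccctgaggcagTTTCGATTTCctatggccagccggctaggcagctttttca
Of 32851 windows of 300 bases 3.44% hold the letters. By gene, so do 3.39% of 8535 tested same-strand genes and 6 of the 13 tested interferon genes with a window. Among the 6 called interferon genes with a window it was 3, so the letters were not particular to the called ones. The windows of Irf7, Oasl2 and Xaf1 hold none, and Usp18 had no window. A match is a description of the sequence and not a binding site.

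**Figure D3:**
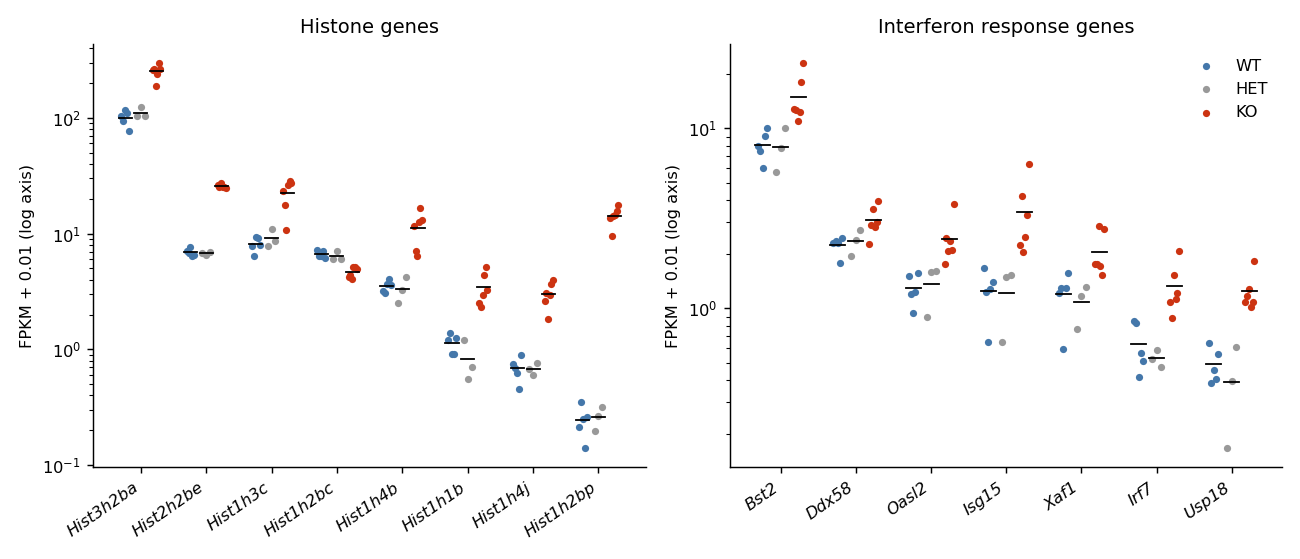
FPKM plus 0.01 on a log axis in each library for 8 histone genes (left) and the 7 called interferon genes (right), with group means as black lines. Hist1h2bc is the 1 histone gene shown whose KO libraries lie below the WT libraries, and KO6 is highest for 6 of the 7 interferon genes.

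Genes with few exons rose more often than genes with many. Of 311 same-strand loci of single-exon genes 71 (22.8%) were higher, and without the histone genes 45 of 276 (16.3%). The share was 10.4% of 578 genes with 2 exons, 5.15% with 3 to 5, 3.71% with 6 to 10, 2.01% with 11 to 20 and 1.76% with over 20. The shares of lower loci moved less along this order, from 2.89% with 1 exon over 7.79% with 2 exons to 8.83% with 11 to 20 and 6.50% with over 20. By transcript length the share of higher loci was 13.5% up to 1000 bases, 5.51% up to 2000, 3.96% up to 4000 and 2.13% up to 8000, but 4.28% over 8000 bases. Genes with 1 exon also had a lower median level, at 4.80 FPKM, than genes with 11 to 20 exons, at 13.3 FPKM. The share of higher loci fell with level, from 8.15% in the lowest quartile to 2.16% in the highest. At a mean level of at least 10 FPKM, 17 of 195 non-histone genes with 2 exons (8.72%) were higher and 8 lower. Of genes with over 10 exons at that level, 32 of 2705 (1.18%) were higher and 164 lower. All these shares keep loci that passed the filter only with KO libraries counted. Of the 11091 same-strand loci 10905 passed on WT and HET libraries alone, with 384 of the 460 higher ones. Shares by exon number were not computed over those loci alone. The parts of level and of the filter in the exon order were not tested.

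Well expressed messages with large rises were few. Fgfbp3, a secreted carrier of fibroblast growth factors with 2 exons, was at 17.98, 16.7, 21.6, 19.0 and 15.3 FPKM in WT, at 19.9, 19.7 and 17.4 in HET, and between 30.01 and 37.1 FPKM in KO with a median of 33.2 (log2 0.87, SE 0.08, limma-trend adjusted p = 4.4e-07). Mthfd2l, a mitochondrial folate enzyme, rose from 27.2 to 47.5 FPKM and the single-exon gene 2310039H08Rik from 14.5 to 26.4 FPKM. The 2-exon genes Smim4 (15.3 to 24.6 FPKM), Mrpl57 for a mitochondrial ribosomal protein (28.6 to 44.8 FPKM) and Mplkip, linked to hair disorders (14.3 to 22.2 FPKM), rose as well. These 6 genes had every KO library above every WT library. The calcium channel gene Cacna1a, with 47 exons, ranked between Smim4 and Mrpl57 by log2 difference, at 8.32 to 12.6 FPKM in WT and 10.8 to 21.8 FPKM in KO (log2 0.65), and its groups overlapped.

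Neural and endocrine regulators were among the rises. Pomc, the precursor of melanocortins and beta-endorphin, was at 2.50, 2.14, 1.93, 2.97 and 2.26 FPKM in WT, at 2.14, 2.43 and 2.53 in HET, and between 16.4 and 20.9 FPKM in KO with a median of 18.8 (log2 2.94, SE 0.10, limma-trend adjusted p = 1.5e-11). Nhlh2, a basic helix-loop-helix factor of hypothalamic neurons, was at 30.9, 30.1, 34.3, 27.3 and 31.8 FPKM in WT and between 43.5 and 47.4 FPKM in KO with a median of 45.9 (log2 0.56, SE 0.05, limma-trend adjusted p = 3.4e-07). Both genes were separated in every library.

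Of 15 hypothalamus and pituitary genes 3 were higher and 1 lower, with a median of 0.05 log2 that was -0.74 after quantile normalization, and 1 was higher without WT2, WT4 or WT5. Beside Pomc, the higher ones were the homeobox gene Otp, at 13.3 FPKM in WT and 16.8 in KO (log2 0.32, limma-trend adjusted p = 0.022), and the peptide gene Cartpt, at 4.13 and 5.51 FPKM (log2 0.39, limma-trend adjusted p = 0.048). Both overlapped between the groups. The adjusted p of Otp was 0.0616, 0.0567 and 0.0549 without WT2, WT4 and WT5, and that of Cartpt was 0.0587 to 0.121 without any 1 of KO1, KO2, KO4, KO5, KO6, WT1, WT2, WT4 or WT5. The lower one was the galanin gene Gal, at 4.18 FPKM in WT and 2.75 in KO (log2 -0.59, limma-trend adjusted p = 0.0063). Npy, the neuropeptide Y gene, from the list of inhibitory neurons and ventral forebrain, fell from 7.05 to 4.08 FPKM (log2 -0.78).

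RNA processing factors moved little. Of 16 cleavage and polyadenylation genes 2 were higher and 0 lower (median 0.04 log2). Pcf11, which couples 3' end cleavage to transcription termination, was at 19.5, 17.5, 19.9, 17.8 and 19.8 FPKM in WT and between 22.2 and 32.7 FPKM in KO with a median of 27.7 (log2 0.55, SE 0.08, limma-trend adjusted p = 6.3e-05). The other was Cstf3, a cleavage stimulation factor subunit, at 26.4 and 30.8 FPKM (log2 0.22). By limma-trend, none of 12 SR splicing factors, 8 proteins of the minor spliceosome and 9 nonsense-mediated decay factors was called, and 1 of 12 Integrator genes was lower.

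Stress, growth and housekeeping lists had few calls. Of 20 p53 targets 0 were higher and 3 lower, namely Perp at 10.2 and 7.57 FPKM, Plk2 at 54.9 and 48.6 FPKM and Cdkn1a, the cell cycle inhibitor p21, at 11.5 and 9.87 FPKM. Of 48 cytosolic ribosomal protein genes, 18 cholesterol synthesis genes, 16 tRNA synthetases and 6 genes of the unfolded protein response, limma-trend called 0. Of 26 cell cycle genes 2 were higher and 0 lower, with summed levels of 1159 to 1274 FPKM in WT and 1163 to 1341 FPKM in KO. The list has 36 genes, and the others, among them Pcna, Top2a, Ccnb1 and Mcm6, had no locus with a single gene name. With library medians equalised 0 were higher and 0 lower, after quantile normalization 3 and 1, and in the authors' quantile-normalized log2 matrix 19 and 0. Among 74 nuclear genes of the respiratory chain 2 were higher and 2 lower, and among 227 numbered zinc finger genes 10 were higher and 7 lower.

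A few erythroid messages rose. Of 14 tested genes 3 were higher and 0 lower, with a median of 0.35 log2 that was -0.02 after quantile normalization. Hemgn, a nuclear protein of blood progenitors, rose from 0.397 to 1.25 FPKM (log2 1.40), but it passed the filter only with KO libraries counted. Of the 13 genes that passed on WT and HET libraries alone, 2 were higher and 0 lower. The list's summed level was 55.5 to 79.2 FPKM in WT and 75.3 to 97.4 FPKM in KO. Ahsp and the globin genes Hba-a2, Hbb-bh1, Hbb-bs and Hbb-bt had no locus with a single gene name and are missing from these values.

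**Figure D4:**
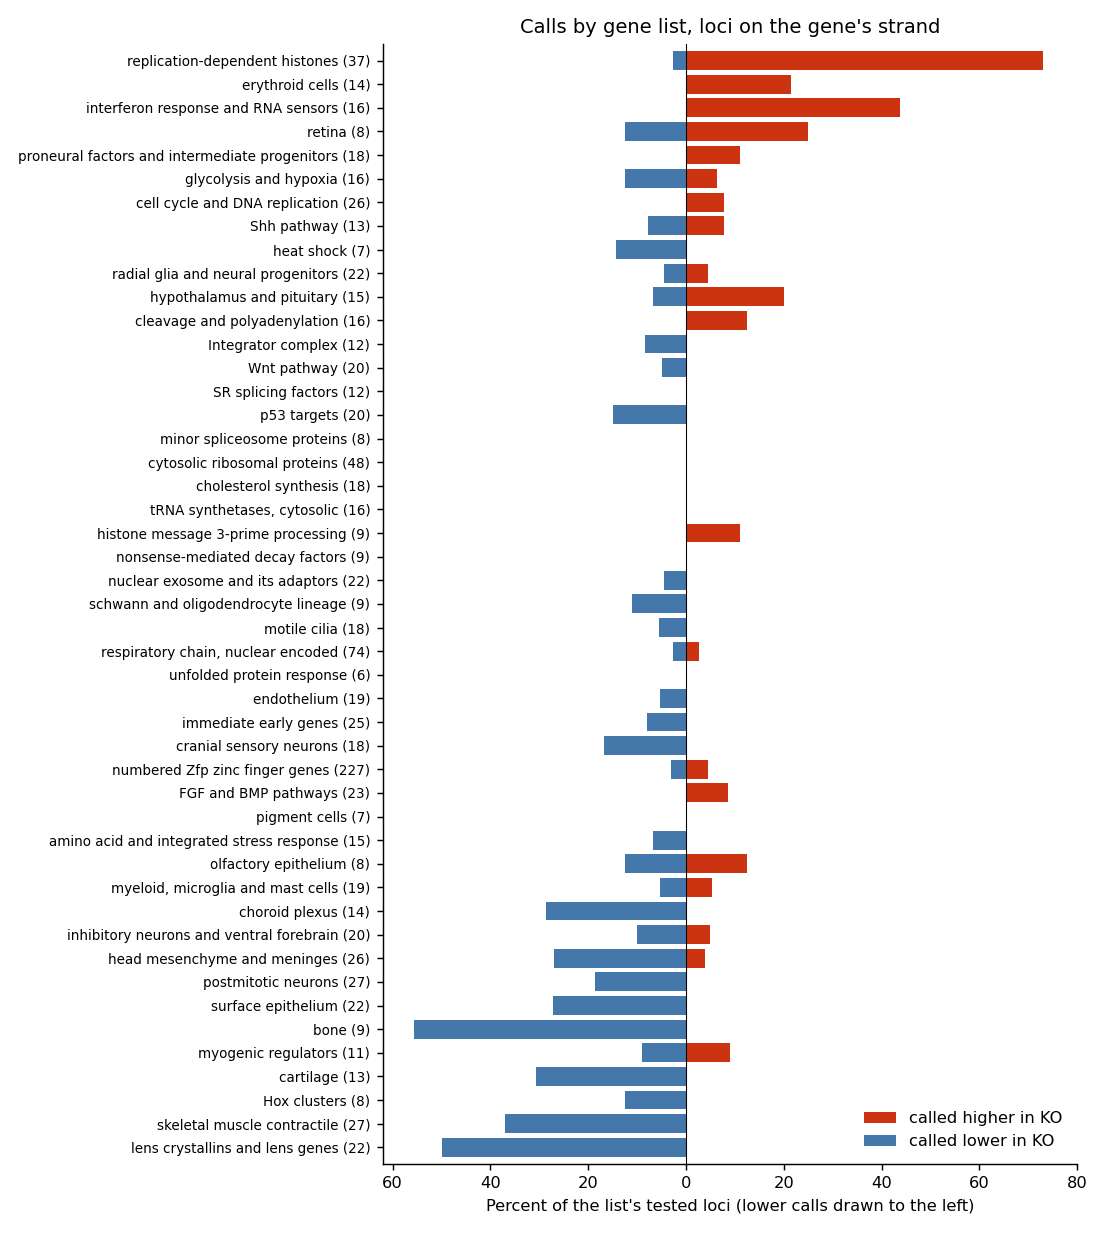
Percent of each gene list's tested same-strand loci called higher (right, red) or lower (left, blue) in KO, with the number tested in brackets and lists ordered by their median log2 difference. Histones are at the top and lens and muscle genes at the bottom, and several RNA processing and housekeeping lists have no call.

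The lists with the lowest medians included those of differentiated tissues of the head. Lens genes had 11 of 22 lower and 0 higher, with a median of -1.03 log2. Skeletal muscle contractile genes had 10 of 27 lower and 0 higher, with a median of -1.02. Both medians stayed between -0.77 and -1.21 under all 4 scalings. No lens or contractile gene had all KO libraries below all WT libraries.

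These counts rested on few libraries. For the lens list the number of lower genes was 7 without KO3, KO4 or WT1 and 6 without KO6, WT3 or WT4. For the muscle list it was 4 without KO1, 5 without KO4, 3 without WT2, 2 without WT4 and 22 without KO5. Lens medians per library were -0.69, 0.12, -1.37, -1.73, -0.52 and -1.56 in KO1 to KO6, and muscle medians -1.67, -2.14, -0.55, -0.99, 0.07 and -0.60. KO2 was thus lowest for muscle and highest for lens.

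Crygd, a gamma-crystallin, was at 4.09, 3.20, 4.55, 4.80 and 2.57 FPKM in WT, at 7.09, 5.24 and 2.82 in HET, and between 0.103 FPKM in KO4 and 2.79 in KO2 with a median of 0.571 (log2 -2.41, SE 0.54, limma-trend adjusted p = 0.0040). KO2 alone lay within the WT range. Crygb followed it at 2.33 and 0.582 FPKM, and Cryba4, a beta-crystallin, at 6.41 and 2.42 FPKM, each also with KO2 highest.

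Mylpf, the fast skeletal myosin light chain, was at 31.5, 56.9, 30.5, 60.4 and 36.1 FPKM in WT and between 8.02 FPKM in KO2 and 37.3 in KO5 with a median of 19.5 (log2 -1.18, SE 0.36, limma-trend adjusted p = 0.029). Its adjusted p was 0.0567 without KO1, 0.0535 without KO4, 0.0767 without WT2 and 0.0771 without WT4, and 0.0554 when adjusted over coding loci alone and 0.0517 in a fit without the HET libraries. The LIM domain gene Csrp3 of striated muscle was at 1.32 and 0.394 FPKM (log2 -1.71).

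Hox genes, which are not transcribed in the forebrain and midbrain and mark the hindbrain and neck, varied widely among libraries too. Of 8 tested 1 was lower, Hoxd8, at 1.54 FPKM in WT and 0.692 in KO (log2 -1.20, limma-trend adjusted p = 0.0069). The list's median deviation was -1.89, -2.48, -1.06, 0.62, 1.57 and 0.30 in KO1 to KO6, and -0.83, 1.05, 0.39, -0.29 and -0.70 in WT1 to WT5. Both ends of the KO range, KO2 and KO5, are also the ends for muscle. KO1 came next to KO2 in both lists, but KO4 was at 0.62 for Hox and -0.99 for muscle. Muscle medians in WT1 to WT5 were -0.31, 0.38, -0.41, 0.50 and -0.17. Their ends were thus WT3 and WT4, while those of Hox were WT1 and WT2. The part of the neck level in the muscle result was not tested.

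**Figure D5:**
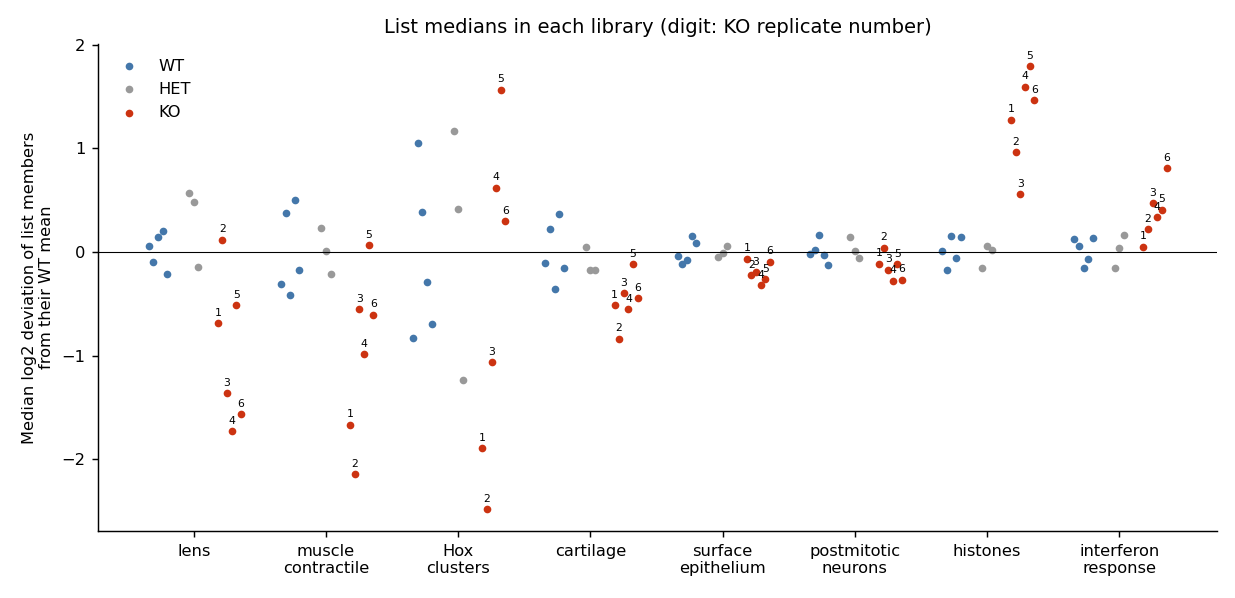
Median log2 deviation of list members from their WT mean in each library, by list and genotype, with the KO replicate number above each KO point. Histone medians of all KO libraries lie above those of WT and HET, while lens, muscle and Hox medians spread widely among KO libraries.

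Skeletal and connective tissue genes were lower too. Cartilage genes had 4 of 13 lower and 0 higher (median -0.49 log2), bone genes 5 of 9 and 0 (median -0.20) and genes of head mesenchyme and meninges 7 of 26 and 1 (median -0.15). The cartilage count was 2 without KO4, WT2 or WT4, 7 without KO5 and 8 without WT3. Mgp, a calcification inhibitor of cartilage, was at 11.7, 17.6, 13.2, 18.8 and 11.4 FPKM in WT, at 16.2, 12.8 and 12.1 in HET, and between 6.81 and 9.39 FPKM in KO with a median of 7.09 (log2 -0.88, SE 0.15, limma-trend adjusted p = 2.0e-04). All KO libraries lay below all WT libraries for Mgp, as for 2.77% of all same-strand loci. Mgp is not in the cartilage list and was named as one of the largest falls. The same separation held for 0 of the 13 cartilage genes, 2 of the 9 bone genes and 2 of the 26 mesenchyme genes.

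Of the cartilage matrix genes, Matn4 fell from 17.6 to 8.78 and Col9a3 from 33.1 to 17.7 FPKM, both with KO5 highest among KO libraries. Pamr1, a secreted protein linked to muscle regeneration, was at 2.92 ± 0.623 FPKM in WT (SD, n = 5) and 1.25 ± 0.527 FPKM in KO (SD, n = 6), a log2 difference of -1.22 (limma-trend adjusted p = 4.0e-04). Cpa3, a mast cell protease, was at 1.20, 1.29, 1.16, 0.975 and 0.874 FPKM in WT, at 1.31, 1.29 and 1.05 in HET, and between 0.305 and 0.537 FPKM in KO with a median of 0.371 (log2 -1.31, SE 0.15, limma-trend adjusted p = 4.0e-06). Its groups did not overlap.

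Lists of surface epithelium, choroid plexus and postmitotic neurons likewise held more lower than higher genes. Other neural and sensory lists varied. Proneural and intermediate progenitor genes had 2 of 18 higher and 0 lower, and olfactory epithelium genes 1 of 8 higher and 1 lower. Inhibitory neuron and ventral forebrain genes had 1 of 20 higher and 2 lower, and cranial sensory neuron genes 0 of 18 higher and 3 lower. Among 22 genes of surface epithelium 6 were lower and 0 higher (median -0.18 log2). In 4 of the 22, all KO libraries lay below all WT libraries, as in 2.77% of all same-strand loci. Choroid plexus genes had 4 of 14 lower and 0 higher (median -0.13). The basal keratin gene Krt15 was at 14.9, 13.3, 14.4, 19.1 and 14.4 FPKM in WT and between 6.61 and 10.9 FPKM in KO with a median of 8.27 (log2 -0.83, SE 0.13, limma-trend adjusted p = 1.0e-04).

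Postmitotic neuron genes had 5 of 27 lower and 0 higher (median -0.16 log2). The count was 3 without KO1, KO6, WT1 or WT2, 2 without KO4, WT3 or WT4, and 11 without KO2. Chgb, a granin of secretory vesicles, was at 13.9, 14.1, 14.9, 14.5 and 13.2 FPKM in WT and between 10.4 and 12.8 FPKM in KO with a median of 11.9 (log2 -0.27, SE 0.06, limma-trend adjusted p = 0.0052). Nsg1, a neuronal endosomal protein, was at 164 and 140 FPKM (log2 -0.22).

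The balance of the 2 directions depended on how libraries were scaled. With the values as deposited, the median of all tested loci differed by -0.00195 log2 between KO and WT, and in the authors' quantile-normalized log2 matrix it was shifted by 0.21. There 4348 coding loci were higher and 218 lower, and after quantile normalization of the FPKM values 592 were higher and 2737 lower. With a common median the counts were 770 and 1059. All 4 scalings together called 464 coding loci higher and 120 lower, of which 273 and 119 were same-strand loci.

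Relative to its own shift, the authors' matrix kept the direction of the lower lists, with medians of -1.05 for lens, -0.98 for muscle, -0.52 for cartilage, -0.19 for bone, -0.22 for mesenchyme, -0.02 for epithelium, -0.10 for choroid plexus and -0.20 for neurons. Without that subtraction the medians of bone (0.02), epithelium (0.19), choroid plexus (0.11) and neurons (0.01) were above 0, and 0 of the neuron genes were called lower by limma-trend, where 0 were also higher. The histone median was 1.25 once library medians were equalised, 0.81 with quantile normalization, and 1.34 in the deposited matrix less its shift.

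Among the genes named above, the calls of Anapc5, Cdkn1a, Chgb, Gal, Hist1h2bc, Npy, Nsg1, Perp, Plk2 and the message of Wdr1 were lost in the authors' matrix, those of Cdkn1a and Chgb with a turned sign. The calls of Cartpt, Ddx58, Hemgn, Irf7, Oasl2, Usp18 and Xaf1 were lost after quantile normalization.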

How the data were processed

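Per the labels, RNA of whole heads was sequenced from stranded polyadenylated libraries. For each library the authors deposited an FPKM table over 67811 loci, and they also deposited a log2 FPKM matrix with equal quartiles in every column and blanks for an FPKM of 0. The software named in the submitters' processing notes is Cuffdiff, Partek, TopHat2 2.1.0, FastQC 0.10.0 and bcl2fastq, with build mm10, and no role is stated. No source used here states the gene models, strand setting or filters, and the files hold no read counts.

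The analysis used log2(FPKM + 0.1), a scale that shrinks changes of low loci. KO and WT were compared with limma-trend (limma 3.58.1, R 4.3.3, robust) in 1 fit of all 14 libraries, adjusted by Benjamini-Hochberg over 18217 loci, and checked on simulated data. Coordinates and exons are from GENCODE M21 (GRCm38). Python 3.11.15, pandas 2.3.3, numpy 2.4.6, scipy 1.17.1 and matplotlib 3.10.9 did the rest.

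Members and the 47 gene lists were chosen with earlier results of these data known. Genes to be named were Zcchc8, the 10 largest rises and falls among called coding loci with a mean of at least 1 FPKM in the higher group whose KO libraries all fell to 1 side of the WT mean, the 8 largest of each direction with a WT mean of at least 10 FPKM, and up to 4 called members of each list. Not all are printed, and second loci outside the largest rises, messages beside second loci, Hist1h1b, Hist1h2bc, Hist1h3c, Hist1h4b, Bst2, Ddx58, Xaf1, Anapc5 and most genes of the closing section were added after their values were seen.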

Additional observations from a re-analysis of the deposited data

Results flagged for a closer look

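A library far from the others of its group was found in 12 of the 152 groups of 5 or 6 libraries examined over the genes named here, where chance alone gives about 1 in 20. KO2 stood high for Crygb (1.69 FPKM) and Nsg1 (159 FPKM). KO3 was high for Cstf3 (37.1 FPKM) and Mplkip (29.5 FPKM), KO5 for Matn4 (14.6 FPKM) and Npy (5.93 FPKM), and KO6 for Oasl2 (3.79 FPKM) and Usp18 (1.81 FPKM). In WT, WT4 was low for Ddx58 (1.77 FPKM), high for Krt15 (19.1 FPKM) and the only library above 0 for the opposite-strand locus of Tmem39b (0.0461 FPKM), and WT5 was high for the message of Igf2bp3 (42.7 FPKM).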

How the results depend on the processing

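With another treatment of the values, the coding loci higher and lower in KO (818 and 868 as reported) numbered 4348 and 218 in the authors' matrix and 592 and 2737 after quantile normalization, 506 were higher with the stricter filter (at least 1 FPKM in 5 libraries), 554 were lower when adjusted over coding loci alone, and 1390 were lower with library weights. Same-strand loci numbered 4041 higher and 213 lower in the authors' matrix, and 2598, 552 and 1386 were lower after quantile normalization, over coding loci alone and with weights. Of the opposite-strand loci 195 were higher after quantile normalization and 142 with the stricter filter, which tests fewer loci. At least 2-fold higher were 150 loci with a pseudocount of 1, 228 after quantile normalization and 209 with the stricter filter, and at least 2-fold lower were 71 in the authors' matrix, 50 with weights, 829 after quantile normalization, 16 with a pseudocount of 0.5 and 12 with 1. The causes were not tested. Leaving out 1 library gave 720 to 941 higher and 564 to 1046 lower coding loci, 376 to 583 and 562 to 1042 same-strand loci, 314 to 329 higher opposite-strand loci, 416 to 440 loci at least 2-fold higher and 16 to 60 at least 2-fold lower. The log2 difference of Zcchc8 was then -1.48 to -1.25, and its call held under all alternatives run.

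Signs turned as follows. In the authors' matrix Cdkn1a was at 0.087, Chgb at 0.0086, and the uncalled messages of Gtf2i at 0.073, Mdm2 at 0.14 and Psma6 at 0.077, and after quantile normalization Sall4 was at -0.082. The Gtf2i message, at -3.3e-04 as reported, was at -0.017 without KO1 and at 0.0018 without KO2, 0.0029 without KO3, 6.9e-04 without KO4, 0.020 without KO6, 0.0091 without WT2 and 3.5e-04 without WT5. That of Mdm2 was at 0.0037 without KO1 and -0.067 without KO6, and that of Psma6 at 0.0092 without WT4 and -0.074 without WT1.

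The replicate numbers did not pair the samples. Deviations of same-numbered WT and KO libraries correlated at -0.20 to -0.02, and 0 of 5 WT libraries matched their own number best. With the replicate number as a block, 713 coding loci were higher and 538 lower, 536 same-strand loci were lower, 20 loci were at least 2-fold lower, and the Gtf2i message was at 0.020. Under the block, with KO6 unpaired, the calls of Cacna1a, Cartpt, Ddx58, Mylpf, Otp and Xaf1 were lost. The call of Cartpt was also lost with a common median, sex as a covariate, the stricter filter, no filter, no HET libraries and over coding loci alone, and that of Otp with no filter.

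Limits are as follows. FPKM tables without counts leave the depth unknown, an FPKM of 0 may be a missing estimate, and near-identical histone and crystallin genes cannot be separated. The strand of a locus was inferred. Males were 3 of the WT and 2 of the KO libraries by their Y-linked RNA, and with sex as a covariate 791 coding loci were higher and 803 lower.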

Other observations

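Genes of early neural development and genes of later glial cells were singled out after their values were seen, so they carry no more than their own calls. The lists that hold some of them moved little, with 1 higher and 1 lower of 22 radial glia and neural progenitor genes (median 0.05 log2) and 0 higher and 1 lower of 9 Schwann and oligodendrocyte genes (median -0.02 log2). Prtg, a receptor-like protein of the early neural tube, was at 0.846, 0.699, 1.04, 0.691 and 0.905 FPKM in WT and between 1.59 and 2.09 FPKM in KO with a median of 1.99 (log2 1.11, SE 0.16, limma-trend adjusted p = 3.7e-05). Lin28a and Lin28b, which block maturation of let-7 microRNAs, rose from 0.671 to 1.25 and from 3.88 to 5.17 FPKM. Msx3, a homeobox gene of the dorsal neural tube, rose from 3.07 to 5.39 FPKM. Sall4, a zinc finger factor of stem cells, rose from 1.22 to 1.67 FPKM (log2 0.42), and after quantile normalization its log2 difference was -0.08.

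Among the falls were Ndrg2, an astrocyte gene, at 18.6, 20.1, 20.8, 21.3 and 16.7 FPKM in WT and between 11.5 and 15.3 FPKM in KO with a median of 13.3 (log2 -0.57, SE 0.09, limma-trend adjusted p = 1.4e-04). The glutamate transporter gene Slc1a3 fell from 21.7 to 17.6 FPKM. S100b, a calcium-binding protein of glia, fell from 1.03 to 0.588 FPKM. The nuclear factor genes Nfix and Nfib, which drive gliogenesis, fell from 20.9 to 15.0 and from 28.8 to 21.6 FPKM. Aldoc, the brain aldolase, was at 12.8 and 7.18 FPKM, with a limma-trend adjusted p of 0.019 that was 0.0506 without WT3. The calls of Aldoc, Nfib, Nfix and Slc1a3 were lost in the authors' matrix, and that of Lin28a after quantile normalization.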
